A study of Caenorhabditis elegans with 2 samples.

Results

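The small subunit of the cytosolic ribosome is built from ribosomal RNA and a set of small subunit proteins, which in Caenorhabditis elegans carry the symbol rps-. The members described here are the 31 protein-coding genes of the Ensembl annotation of WBcel235 whose symbol starts with rps-, of 19973 protein-coding genes on the nuclear chromosomes. A gene counted as bound if any thresholded peak had its summit in the window that reaches 1500 bp up and 500 bp down from any annotated start of the gene. Of the 31 genes, 29 (93.5%) were bound, and rps-2 and rps-16 were not. Over all protein-coding genes, 3883 were bound, which is a background of 19.4%. The genes lie on 5 chromosomes, with 8 on chromosome I, 1 on chromosome II, 9 on chromosome III, 10 on chromosome IV and 3 on chromosome V.

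The peaks come from chromatin immunoprecipitation and sequencing (ChIP-seq) of NHR-23, a nuclear receptor related to mammalian RORs and needed for molting, carried as a fusion to eGFP. The animals were whole L3 larvae of strain OP43, both sexes pooled, whose labelled genotype is unc-119(ed3) III; wgIs43. Both samples carry the unc-119 mutation and the nhr-23 transgene wgIs43, an integrated transgene of 1 strain whose promoter and copy number the labels do not state, and whole larvae do not show in which cells a peak arises. The 2 biological replicates form 1 group, so there is no comparison between conditions and no test, and every value below is a description. Many values are set beside the same value over all genes, all bound genes or all peaks. Those given alone have no such background here.

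The small subunit binds messenger RNA and reads its codons, and its proteins are commonly divided between those of the head and those of the body of the particle. In growing animals ribosomal protein genes are among the most strongly transcribed, and their products are made in matched amounts. Many C. elegans transcripts are trans-spliced, that is, a short leader RNA is joined to the message at an acceptor site, and the annotated start then lies at the acceptor and downstream of where transcription began. Head-to-head neighbours, which are transcribed away from each other, can share the stretch of DNA between them and with it a peak.

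The sequence at 3 of the strongest peaks is shown first, in windows of 101 bases centred on the summit and read 5′ to 3′ on the strand of the gene, on ce11 (the same assembly as WBcel235). The summit windows of rps-12, rps-1 and rps-28, which hold ranks 9, 31 and 60, are rps-12 (chrIII:5679080-5679180, plus strand), rps-1 (chrIII:4475605-4475705, plus strand) and rps-28 (chrIV:1659199-1659299, plus strand). Capitals mark GAGAGA or its reverse complement TCTCTC, which occurs in the window of rps-1 alone among these.
rps-12: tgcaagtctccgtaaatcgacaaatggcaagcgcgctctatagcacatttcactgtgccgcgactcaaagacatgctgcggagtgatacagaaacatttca
rps-1: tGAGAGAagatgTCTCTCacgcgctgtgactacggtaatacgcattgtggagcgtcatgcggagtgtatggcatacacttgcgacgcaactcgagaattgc
rps-28: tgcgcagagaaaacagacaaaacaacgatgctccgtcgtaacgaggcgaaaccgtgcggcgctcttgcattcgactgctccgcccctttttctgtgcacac

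Other summit windows are shown because they share strings of 8 letters. They are rps-3 (chrIII:6206391-6206491, plus strand), rps-14 (chrIII:7179808-7179908, minus strand), rps-24 (chrIV:385561-385661, plus strand), rps-30 (chrV:7776272-7776372, plus strand), rps-11 (chrIV:11602258-11602358, plus strand), rps-25 (chrIV:5947919-5948019, minus strand) and rps-21 (chrIII:7189876-7189976, minus strand). In these windows capitals mark GCGAGACC, AAAGGCGC, GCAGCCAA, GCTGCGTA, GAATACTC and GAGAGA, each on either strand, and adjoining or overlapping matches run together.
rps-3: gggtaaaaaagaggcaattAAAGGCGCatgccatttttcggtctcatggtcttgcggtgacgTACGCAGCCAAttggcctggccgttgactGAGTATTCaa
rps-14: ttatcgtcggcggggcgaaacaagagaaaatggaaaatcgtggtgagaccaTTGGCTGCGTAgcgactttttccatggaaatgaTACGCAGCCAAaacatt
rps-24: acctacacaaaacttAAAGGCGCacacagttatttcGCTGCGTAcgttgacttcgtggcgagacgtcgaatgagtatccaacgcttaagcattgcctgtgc
rps-30: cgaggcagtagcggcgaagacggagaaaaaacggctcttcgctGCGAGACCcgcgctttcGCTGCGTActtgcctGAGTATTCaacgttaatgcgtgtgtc
rps-11: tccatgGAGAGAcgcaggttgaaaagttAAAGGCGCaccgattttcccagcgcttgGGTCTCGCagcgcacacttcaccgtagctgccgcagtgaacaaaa
rps-25: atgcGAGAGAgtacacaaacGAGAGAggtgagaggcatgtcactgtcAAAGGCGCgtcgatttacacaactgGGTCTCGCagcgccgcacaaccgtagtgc
rps-21: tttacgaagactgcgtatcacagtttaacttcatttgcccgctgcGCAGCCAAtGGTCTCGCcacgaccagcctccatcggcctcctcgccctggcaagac

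These 5 strings were picked from the windows themselves, as the 8-letter strings with the largest excess in the 29 rps- windows over all thresholded peaks that share no stretch of 6 letters, so their counts among the members are a description. Within 50 bp of the summit, GCGAGACC (reverse complement GGTCTCGC) lay at 9 of the 29 bound members, among them rps-11, rps-21, rps-25 and rps-30. The share over all 4944 thresholded peaks was 2.16%. AAAGGCGC (reverse complement GCGCCTTT) lay at 7 members, against 1.56% of all peaks. GCAGCCAA (reverse complement TTGGCTGC) and GCTGCGTA (reverse complement TACGCAGC) each lay at 6 members, against 0.425% and 0.546% of all peaks. Both can be read in 1 run, TACGCAGCCAA, which stands once in the window of rps-3 and on both strands in that of rps-14. GAATACTC (reverse complement GAGTATTC) lay at 5 members, rps-0, rps-3, rps-20, rps-22 and rps-30, against 0.425% of all peaks.

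At least 1 of the 5 strings lay at 18 of the 29 members (62.1%). The 38 peaks of bound large subunit genes (rpl-) that are not also member peaks were not among the windows from which the strings were picked. They held at least 1 string in 20 cases (52.6%), and the 4877 remaining thresholded peaks in 162 (3.32%). Both sets belong to the list of all peaks against which the strings were picked. The low share in the remaining peaks thus follows in part from the picking. String by string, GCGAGACC lay at 13 of the 38 rpl- peaks (34.2%) and AAAGGCGC at 10 (26.3%), GAATACTC at 4 (10.5%), and GCAGCCAA and GCTGCGTA at 1 each (2.63%). The member windows were richer in G and C than those of the list as a whole, with a median of 51.5% (29.7% to 59.4%) against 43.6%, and the part of this in the counts of strings was not tested. A match is a string of letters, not a site.

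The 5 motifs listed for the search were counted in the same windows. The nuclear receptor element AGGTCA or GGGTCA (reverse complements TGACCT and TGACCC) was in none of the 29 windows, against 11% of all thresholded peaks. GAGAGA (reverse complement TCTCTC) was at 6 members (20.7%), rps-1, rps-5, rps-8, rps-9, rps-11 and rps-25, against 26.5% of all peaks. CACGTG, which reads the same on both strands, was at rps-29 only, against 5.2% of all peaks, and TATAAA (reverse complement TTTATA) at rps-0 only, against 5.38%. A run of T, TTTTTTTT (or a run of A, on the other strand), was in no member window and in 4.33% of those of all peaks. The absence of a string says only that these letters are not in these 101 bases.

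The letters before the annotated starts are shown because all distances below are counted from those starts. The 20 bases before the start are given for the member with the strongest peak, for rps-1, for both unbound members and for the pair without the full acceptor string, at rps-12 (chrIII:5679278-5679297, plus strand), rps-1 (chrIII:4475898-4475917, plus strand), rps-2 (chrIV:7926392-7926411, minus strand), rps-16 (chrV:15000542-15000561, minus strand), rps-0 (chrIII:4754052-4754071, minus strand) and rps-14 (chrIII:7179589-7179608, minus strand). Capitals mark the last 6 bases.
rps-12: tcgaaatttctaatTTTCAG
rps-1: ttatgtattcctatTTTCAG
rps-2: aatttctcgtaattTTGCAG
rps-16: tgtttaatatattaTTACAG
rps-0: attaatttttgaatTTTAAG
rps-14: atcaaggaattcaaTTTTAG

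Every member had AG directly before an annotated start, 31 of 31, against 36.4% of all protein-coding genes and 60.2% of bound genes. The worm splice acceptor string TTNCAG stood there in 29 of the 31, against 25.7% of all genes and 45.6% of bound genes. The exceptions were rps-0, with TTTAAG, and rps-14, with TTTTAG. Where such a start is an acceptor, the start of transcription lies farther upstream. Distances below run to the annotated start nearest the summit, which has AG before it at 26 of the 29 bound members. At rps-22, rps-24 and rps-27 the nearest start lacks it, and the summits lay 240, 283 and 612 bp upstream of their other start, which has it.

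Peak strength was read as rank, and coordinates below are those of the peak on ce11. Each peak carries a signal value, the caller's own measure, which orders peaks within 1 list and is not compared between lists. The thresholded list held 4944 peaks with signals from 34.2 to 967.1 and equals the strongest peaks of the list called on both replicates together. The 29 bound members had signals from 43.8 to 533.1, with a median of 154.4 and a median rank of 384 (range 9 to 3759). Their median percentile within the list was 92.3, against 59.0 over all bound genes. Among them, 15 (51.7%) lay in the strongest 494 peaks, against 14.4% of bound genes. In the stronger 2472 lay 26 of the 29, against 2283 of the 3883 bound genes.

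The strongest member peak was assigned to rps-12, a small protein of the head that in other eukaryotes lies at the edge of the particle. This peak (chromosome III, 5678992 to 5679272) had a signal of 533.1 at rank 9, with 244.6 at rank 10 in replicate 1 and 289.9 at rank 9 in replicate 2. The rps-19 peak (chromosome I, 9625937 to 9626203) had a signal of 434.1 at rank 15, with 212.8 at rank 15 in replicate 1 and 221.6 at rank 18 in replicate 2. Human RPS19 is the gene most often mutated in Diamond-Blackfan anaemia. For rps-20, a head protein, the peak (chromosome I, 14469219 to 14469470) had a signal of 391.3 at rank 22, with 171.3 at rank 32 in replicate 1 and 218.7 at rank 19 in replicate 2. These peaks held ranks of 32 or better in every list. At rps-12, rps-19 and rps-20 the summit lay nearer to the start of the head-to-head neighbour than to that of the rps- gene.

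The rps-1 peak, at the gene of a body protein near the exit of the messenger RNA (chromosome III, 4475544 to 4475785), had a signal of 340.4 at rank 31. It stood at 166.0 and rank 34 in replicate 1 and at 175.7 and rank 46 in replicate 2. For rps-15, whose product reaches toward the decoding centre, the peak (chromosome I, 8816452 to 8816699) had a signal of 316.2 at rank 43, with 161.4 at rank 36 in replicate 1 and 155.4 at rank 66 in replicate 2. The gene of rps-28, a short protein near the messenger RNA exit, had a peak (chromosome IV, 1659135 to 1659379) with a signal of 291.0 at rank 60, with 122.5 at rank 93 in replicate 1 and 171.3 at rank 52 in replicate 2. Next came rps-23, a protein of the decoding centre in the body (chromosome IV, 12391225 to 12391446), with 213.9 at rank 165, 102.1 at rank 170 in replicate 1 and 110.0 at rank 191 in replicate 2. The body protein rps-0, related to the human laminin receptor protein RPSA (chromosome III, 4754238 to 4754463), followed with 206.5 at rank 189, 89.9 at rank 218 in replicate 1 and 115.8 at rank 168 in replicate 2. In both replicate lists all 8 of these genes stood at rank 218 or better.

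The weakest bound members were rps-18, rps-25 and rps-7, which are also those whose peaks have the width of 324 bp most common in the list. The other 26 member peaks were narrower, and the median width over the 29 was 222 bp (132 to 324 bp), against 324 bp over the thresholded list. The rps-18 peak (chromosome IV, 14824972 to 14825295) had a signal of 59.2 at rank 2526, with 33.7 at rank 1934 in replicate 1 and 25.5 at rank 3846 in replicate 2. At rps-25, a head protein needed in human cells for some viral internal initiation, the peak (chromosome IV, 5947807 to 5948130) had a signal of 48.5 at rank 3341, with 25.3 at rank 3016 in replicate 1 and 28.2 at rank 3392 in replicate 2. At rps-7, a body protein (chromosome I, 10330464 to 10330787), it was 43.8 at rank 3759, with 22.7 at rank 3553 in replicate 1 and 16.1 at rank 6329 in replicate 2. The last value puts rps-7 outside the strongest 4944 peaks of replicate 2.

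The remaining bound members ranked from 215 (rps-22) to 2392 (rps-8). Of these, rps-22, rps-10, rps-24, rps-14, rps-21, rps-26, rps-13, rps-4 and rps-30 stood at ranks 215 to 593. Lower in the list were rps-27, rps-9, rps-17, rps-5, rps-3, rps-11, rps-6 and rps-29, at ranks 776 to 2082. By place in the particle, taken by homology from yeast and human structures, 12 of 13 genes of head proteins and 17 of 18 genes of body proteins were bound. Their median ranks were 561 and 384.

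**Figure D1:**
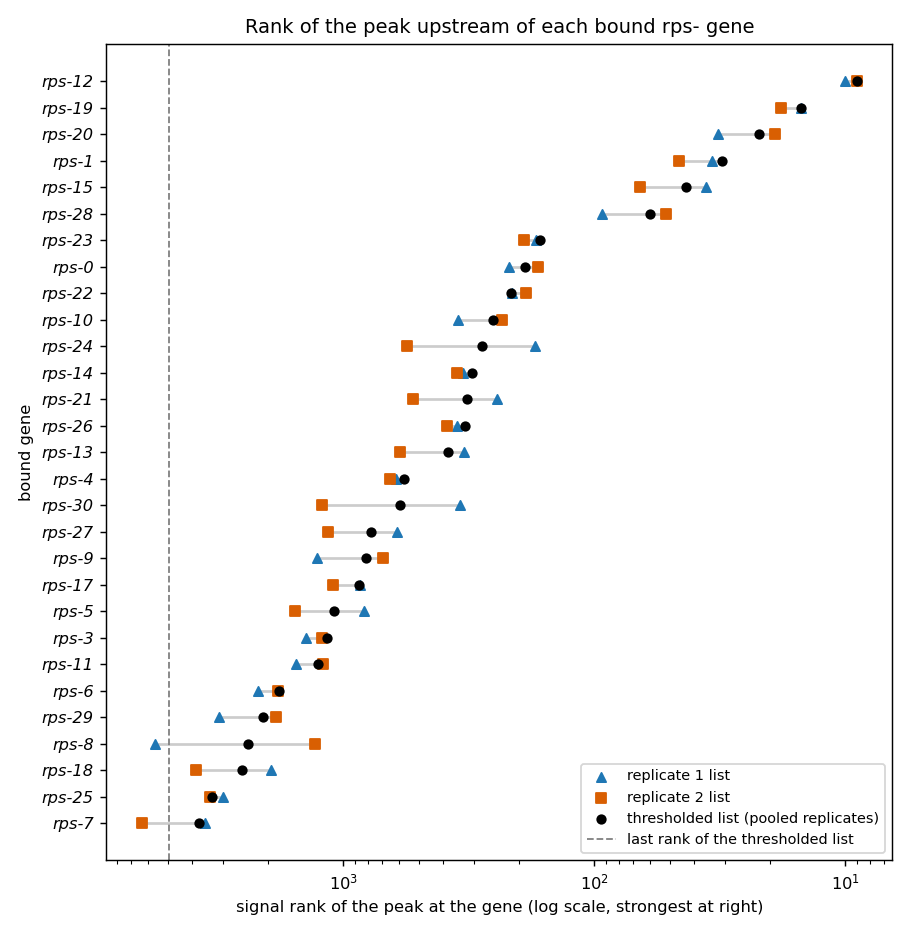
Signal rank of the peak of each bound rps- gene on a log axis with the strongest at right, in the thresholded list (circles) and in the lists of replicate 1 (triangles) and replicate 2 (squares), with a dashed line at the last thresholded rank of 4944. The genes run from rps-12 at rank 9 to rps-7 at rank 3759, and only rps-8 in replicate 1 and rps-7 in replicate 2 lie beyond the line.

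All 29 member summits lay inside a peak of both replicate lists, against 96.5% of all thresholded peaks. Counting only the strongest 4944 peaks of each replicate, 27 of the 29 stood in both, against 67.4% of all thresholded peaks. The exceptions were rps-8, at rank 5611 with a signal of 16.2 in replicate 1 and rank 1297 with 51.6 in replicate 2, and rps-7. The wider gaps between replicate ranks also included rps-30, with 342 and 1213, rps-24, with 172 and 557, and rps-29, with 3124 and 1858. Of the 29 members, 17 ranked better in replicate 1 and 12 in replicate 2. Across the 29, the replicate ranks had a Spearman rho of 0.932, and across the 4773 thresholded peaks found in both lists 0.602, where both figures describe peaks that share the pooled call. The replicate summits lay a median of 11 bp apart at the members, at most 54 bp, against a median of 26 bp over all matched peaks.

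Member summits lay in a narrow stretch upstream of the start, and the quartiles of the rpl- genes, given below, were similar. Each of the 29 genes had exactly 1 summit in its window, as did 89.1% of bound genes, and all 29 summits lay upstream, as did 90.9% of nearest summits of bound genes. The distance had a median of −281 bp, with quartiles of −366 and −256 bp, against a median of −245 bp and quartiles of −601 and −118 bp over all bound genes. The nearest member summit was that of rps-22, 115 bp upstream, and the farthest that of rps-27, 599 bp upstream, both counted from a start without AG before it. Counted from starts with AG, the median over the 29 was −283 bp, and the nearest was the summit of rps-12, 168 bp upstream. Counted from the nearest start of any kind, the members ran from 115 to 599 bp upstream, where 50.4% of bound genes fell. The members themselves set this range. From 200 to 400 bp upstream lay 22 of the 29, against 23.2% of bound genes. This band was not among the planned measures and encloses the members' own quartiles, so the count is a description. In the replicate lists the median distances of the member peaks were −291 and −282 bp. Over the 29 peaks, signed distance and signal had a Spearman rho of 0.23.

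Among the 8 strongest, the summits of rps-12, rps-20, rps-1, rps-19, rps-23 and rps-0 lay 168, 244, 263, 279, 281 and 302 bp upstream, and those of rps-15 and rps-28 lay 381 and 442 bp upstream. Replicate summits kept close to these places. The summit of rps-19 lay 280 and 279 bp upstream in replicates 1 and 2, and that of rps-28 lay 443 and 442 bp upstream. The largest gap, at rps-11, was between 368 and 314 bp. Head genes had a median of −365 bp and body genes of −276 bp, and the range of the first, −545 to −168 bp, lay inside that of the second, −599 to −115 bp.

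**Figure D2:**
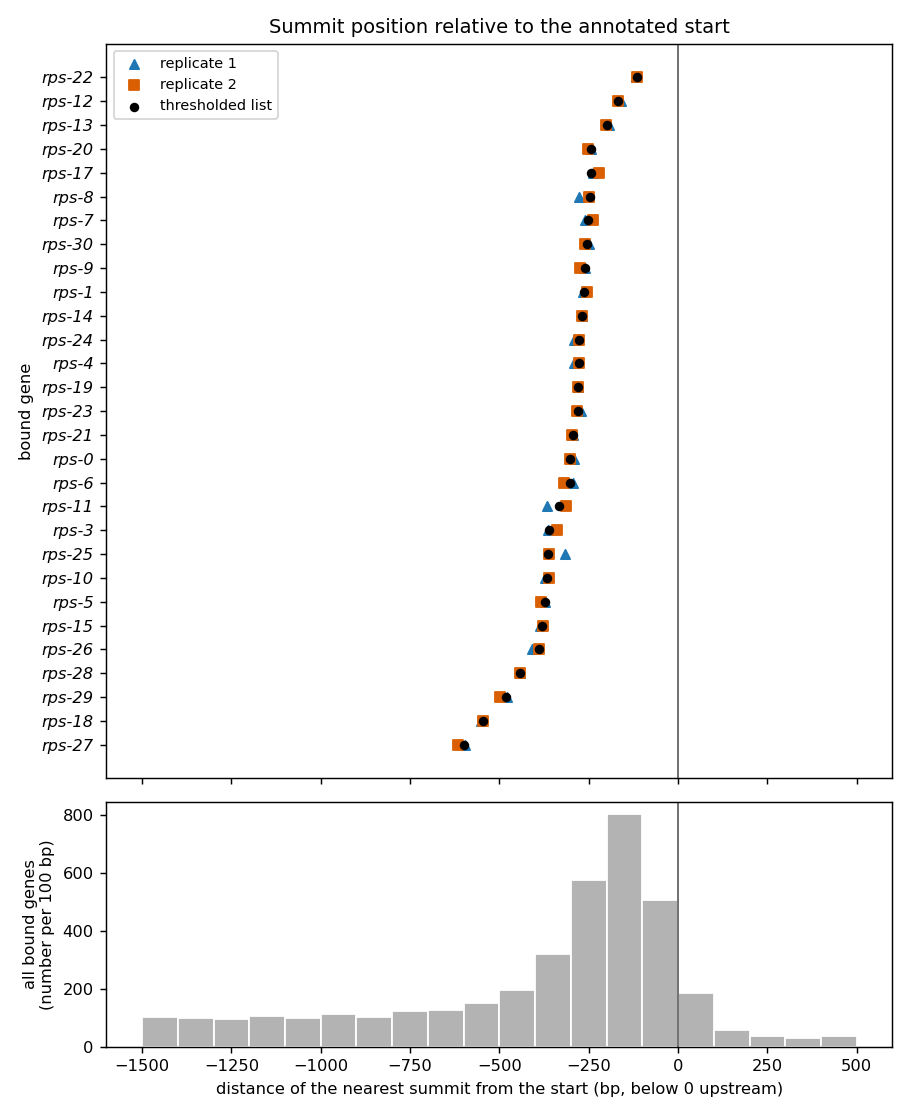
Distance in bp from the annotated start to the summit at each bound rps- gene (top, thresholded list and both replicates, below 0 is upstream) and the number of all bound protein-coding genes per 100 bp (bottom). All 29 member summits lie between −599 and −115 bp, while those of all bound genes run over the whole window.

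Of the 29 summits, 24 were intergenic, that is, outside every annotated gene including non-coding ones, as were 61.1% of all thresholded summits. Those of rps-1, rps-6, rps-10 and rps-30 lay in annotated non-coding RNA genes, and that of rps-18 in the 5' UTR of its neighbour sec-61.A. In the gene bodies, 5 members, rps-4, rps-12, rps-13, rps-23 and rps-29, hold a snoRNA gene on their own strand, against 0.796% of all genes, and rps-20 holds the microRNA cel-mir-354. All of these host genes were bound, as were 29 of all 31 members (93.5%).

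Most members have an upstream neighbour that runs the other way, counted without a limit on distance. At rps-5, rps-24 and rps-28 it lay 1895, 2701 and 14392 bp away and did not share the summit. The upstream neighbour lay head-to-head at 22 of the 31 members (71.0%), against 45.4% of all genes, and at 22 of the 29 bound members (75.9%), against 59.5% of bound genes. The gap to that neighbour had a median of 533 bp at bound members, against 831 bp over bound genes and 1156 bp over all genes. Both unbound members, rps-2 and rps-16, stand in tandem behind a gene on the same strand. The median rank was 293 at the 22 head-to-head members, rps-5, rps-24 and rps-28 included, and 1261 at the 7 in tandem. Median ranks by arrangement over all bound genes are not given, so whether this difference is particular to rps- genes was not tested. The assigned summit also lay in the window of another protein-coding gene at 24 members (82.8%), against 52.8% of bound genes. At 19 of the 24 this gene was the head-to-head neighbour. At rps-4, rps-5, rps-24, rps-25 and rps-28 it was not. There the summit lay at −1244, −1400, −1088, −1331 and −861 bp from the start of the only other gene. The 5 bound members whose summit lay in no other window were rps-7, rps-8, rps-11, rps-17 and rps-21.

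In 19 cases the head-to-head neighbour shared the summit, with starts a median of 531 bp apart (266 to 781 bp). The summit was nearer to the neighbour in 14 pairs and nearer to the rps- gene in 5, those of rps-1, rps-9, rps-14, rps-15 and rps-22. The same count over divergent pairs of other bound genes is not given, so whether this split is particular to rps- pairs was not tested. From the rps-22 start with AG before it, 240 bp away, the summit would be nearer to the neighbour polh-1, at 151 bp. For rps-12 the neighbour was ska-3, which encodes a protein of the spindle and kinetochore, with the summit 125 bp from its start. For rps-19 it was hsr-9, a relative of the human DNA repair protein 53BP1, at 166 bp. For rps-0 it was rbg-3 at 71 bp, and for rps-26 it was tmem-107 at 68 bp. The pair of rps-1 and ifet-1, an eIF4E-binding translational regulator of the germ line, had its summit 263 bp from rps-1 and 505 bp from ifet-1. The pair of rps-18 and sec-61.A, the channel subunit for protein entry into the endoplasmic reticulum, differed from the others, since the summit lay not between the starts but 130 bp downstream of the sec-61.A start. With 1 sample group and no expression values, the peak cannot be given to either gene of a pair.

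**Figure D3:**
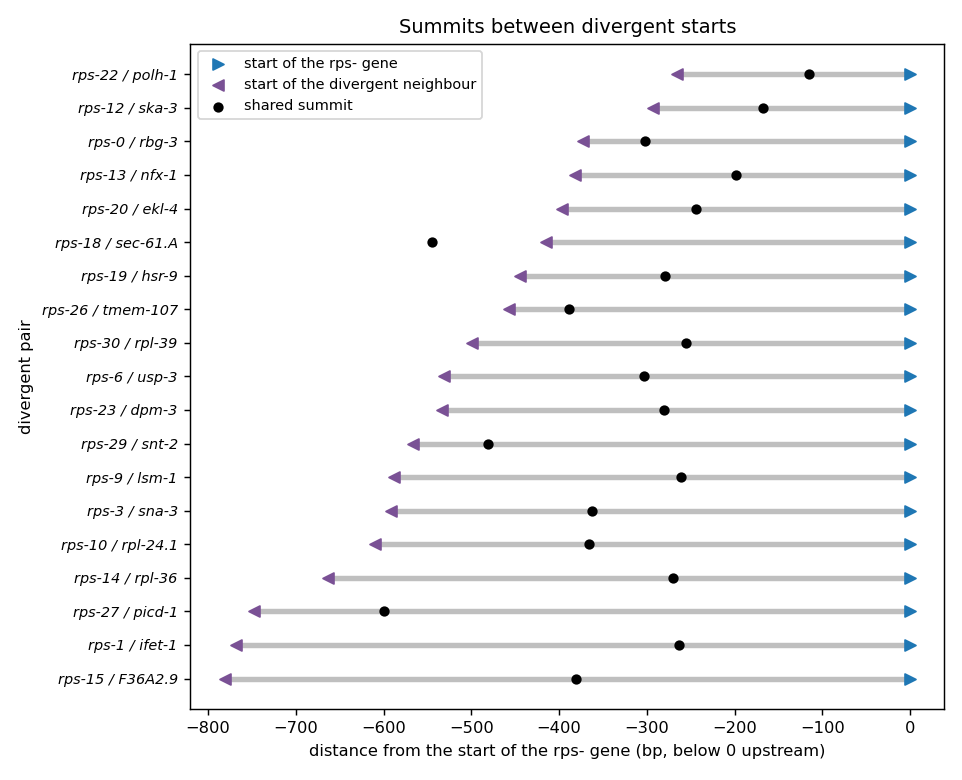
Positions in bp of the shared summit (circle) between the start of each rps- gene (right-pointing triangle at 0) and the start of its divergent neighbour (left-pointing triangle), for the 19 pairs that share a summit. The spans run from 266 bp at rps-22 and polh-1 to 781 bp at rps-15 and F36A2.9, and the summit of rps-18 is the only one outside its span.

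Of these pairs, 3 join a small and a large subunit gene. The rps-10 and rpl-24.1 peak (chromosome I, 4584744 to 4584977) had a signal of 184.3 at rank 253, with 75.6 at rank 350 in replicate 1 and 104.1 at rank 233 in replicate 2. Its summit lay 366 bp upstream of rps-10, a head protein, and 244 bp upstream of rpl-24.1. The rps-14 and rpl-36 peak (chromosome III, 7179727 to 7179950), whose window is printed above, had a signal of 168.9 at rank 307, with 77.1 at rank 334 in replicate 1 and 91.1 at rank 353 in replicate 2. It lay 270 bp from rps-14, a protein of the body's platform, and 393 bp from rpl-36. The rps-30 and rpl-39 peak (chromosome V, 7776219 to 7776427), also printed above, had a signal of 129.6 at rank 593, with 76.1 at rank 342 in replicate 1 and 53.5 at rank 1213 in replicate 2. The human counterpart of rps-30, FAU, is made as a fusion to a ubiquitin-like protein, and rpl-39 belongs to the peptide exit tunnel. This summit lay 256 bp from rps-30 and 243 bp from rpl-39, close to the middle of the span. No peak was shared by a pair of rps- genes.

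The unbound members had weak peaks or none in the fuller lists. The gene rps-2 (chromosome IV, 7925298 to 7926391, minus strand) encodes a protein at the messenger RNA entry and stands 356 bp behind C49H3.12. It had no summit in its window in the thresholded list, the full pooled list or replicate 2, and 1 in replicate 1, 255 bp upstream, at rank 5245 with a signal of 17.04. The nearest thresholded summit lay 1272 bp downstream of the start, at rank 4267. The gene rps-16 (chromosome V, 15000018 to 15000541, minus strand) encodes a head protein whose tail reaches the transfer RNA and stands 109 bp behind fib-1, the gene of the ribosomal RNA methyltransferase fibrillarin. The full pooled list had summits 184 bp downstream of its start (rank 8885, signal 19.02) and 1028 bp upstream (rank 24339, signal 6.50). In replicate 1 the only summit lay 184 bp downstream at rank 10116 (signal 10.2), and in replicate 2 it lay 231 bp downstream at rank 11655 (signal 7.86). The nearest thresholded summit lay 1773 bp upstream of rps-16, at rank 455, and this peak lies 91 bp upstream of fib-1. With a window of 3000 bp upstream it was assigned to rps-16 as well.

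The count of bound members moved with the rule. With windows of 500, 1000 and 3000 bp upstream, 27, 29 and 30 members were bound, against 13.8%, 16.9% and 24.8% of all genes. The 500 bp window left out rps-18 and rps-27. The strongest 4944 peaks of replicate 1 alone gave 28, without rps-8 (18.3% of all genes), and those of replicate 2 alone 28, without rps-7 (19.3%). The 2472 strongest thresholded peaks gave 26, without rps-7, rps-18 and rps-25, against 11.4%. Thresholded peaks also among the strongest 4944 of both replicates gave 27, against 14.4%, a rule added after seeing the data. With the outermost start of each gene alone, 29 were bound, against 18.3%. When each summit was given to its nearest start alone, 15 members were bound, against 14% of all genes. The other 14 of the 29 have a summit that lies nearer to another gene.

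Other genes of the small subunit and of translation were counted under the same rule. The small subunit proteins without the rps- symbol are encoded by ubl-1, a fusion of ubiquitin to a ribosomal protein, and rack-1, a signalling scaffold of the head. The ubl-1 peak had a signal of 161.2 at rank 349, 195 bp upstream, and the rack-1 peak 88.1 at rank 1315, 251 bp upstream. Of the rpl- genes 41 of 47 (87.2%) were bound, with a median rank of 436 and a median distance of −298 bp. All 3 rla- genes, which encode the acidic stalk proteins, were bound, at a median rank of 3534, with the rla-1 summit 1341 bp upstream. Of the mitochondrial small subunit genes (mrps-), 11 of 29 (37.9%) were bound, with a median rank of 1609. Of the eif-3. genes, whose initiation factor binds the small subunit, 9 of 11 (81.8%) were bound, and eif-3.F and eif-3.L were not. Their ranks ran from 23 at eif-3.C to 4366 at eif-3.K. The summits of eif-3.J and eif-3.K lay 944 and 1498 bp upstream, the latter at the edge of the window.

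Of 18 names listed for small subunit assembly, 3 were not matched in the annotation and nob-1 is a Hox gene in this species, which leaves 14. Of those 14, 9 (64.3%) were bound. They were fib-1, nol-56 and nol-58 of the methylation complex guided by snoRNA, nol-6, utp-20, krr-1, rbd-1, nath-10 and riok-1. Their median rank was 1942 and their median distance −175 bp. These lists are set beside the background of 19.4% and were not tested against one another.

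**Figure D4:**
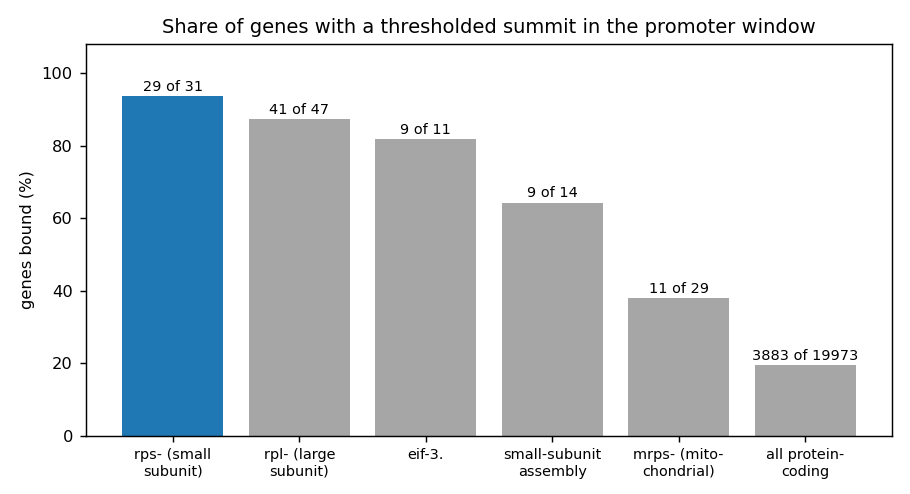
Percent of genes with a thresholded summit in the promoter window, by gene list, with counts above the bars and all protein-coding genes at right. The rps- bar stands at 29 of 31, next to 41 of 47 for rpl- genes, 11 of 29 for mrps- genes and 3883 of 19973 for all genes.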

How the data were processed

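ChIP-seq of eGFP-tagged NHR-23 was deposited for 2 biological replicates, which form 1 group. Per the deposited text files, the authors called peaks for each replicate against a control and on both alignments pooled, and derived the thresholded list by an irreproducible discovery rate procedure. For the aligner, caller and threshold, these were not given in the sources used. The deposited signal value per peak is the authors' own and served only to rank peaks within a list. The lists hold no read counts, so depth is unknown. The replicate and pooled lists held 30000, 27191 and 30000 peaks. Summits on ce11 were assigned to Ensembl release 115 protein-coding genes with Python 3.11.15, numpy 2.4.6, pandas 2.3.3 and scipy 1.17.1, and plotted with matplotlib 3.10.9. Distances are signed to the nearest start of the gene. Sequences were read from the RefSeq WBcel235 genome. On simulated data with only the outermost start of each gene, 1000 of 1000 summits placed within windows were assigned with their true distance. Of summits outside windows, 200 of 200 were assigned to none. This checks the code only, and the choice of the nearest among several starts was not checked this way. Values are given in full for the 8 strongest and 3 weakest bound members, unbound members, members sharing a summit with an rpl- gene, ubl-1 and rack-1. The members and lists were chosen with earlier results of these data known, and the 8-letter strings after the windows were seen.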

Additional observations from a re-analysis of the deposited data

How the results depend on the processing

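Of 38 alternatives over 5 results, 27 stayed within the set tolerance (1.5 times a count, or 1 SD between the replicate lists), 11 moved and none reversed direction. With each summit given to its nearest start alone, the count of bound members was 15, the median percentile 88.4 and the median distance −276 bp, and sharing is not defined. With either replicate left out, bound members numbered 28, the median percentile ranged from 88.4 to 93.0 and the median distance from −291.5 to −290 bp, and 24 members shared their summit. The stronger 2472 peaks gave a median percentile of 86.9 within that shorter list. The median distance was −279 bp with a 500 bp window, −288 bp with 3000 bp, −295 bp with peaks strong in both replicates and −283 bp from the nearest start with AG before it, the last 2 chosen after seeing the data. These distances moved because the tolerance was 1.06 bp. It is the SD of −291.5 and −290 bp, the medians over the 28 members bound under each replicate list. Over all 29 member peaks the replicate medians were −291 and −282 bp, farther apart than this tolerance. Sharing fell to 16 members with the 500 bp window and was 28 with 3000 bp.

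No paired analysis was possible because there is 1 group. The lists hold no read counts, so the counting error of weak peaks, such as that of rps-2 in replicate 1, is unknown. No control track and no other factor's peaks were used here, so whether these promoters carry peaks in other experiments was not tested.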
